A study of Mus musculus with 18 samples.

Results

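Translation initiation and elongation factors were followed across 3 stable lines of C2C12 cells, a mouse myoblast line that stops dividing and fuses into myotubes once growth factors are withdrawn. The members are the protein-coding genes whose GENCODE M21 symbol starts with Eif or Eef and a digit, without the eIF2 kinases (Eif2ak) and the eIF4E-binding proteins (Eif4ebp). By this rule the count files hold 60 of them among 50600 gene identifiers. Of the 60, 57 had enough reads to be tested beside all other genes, 13939 in all. Eef1a2, the eEF1A copy of mature muscle, neurons and heart (chromosome 2, 181147653 to 181157014, GRCm38), had 1 read in total, in MK5-depleted growth medium library 2. Eif4e1b, a germline relative of the cap-binding protein, had 1 read in each of 2 libraries, and Eif2s3y, the Y-linked copy of the eIF2 gamma subunit, had 0. Eef1akmt4 also meets the rule and was not analysed here.

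Initiation factors bring the initiator tRNA and the small ribosomal subunit to the capped mRNA, scan to the start codon and join the large subunit. eIF2 carries the tRNA, eIF2B recharges eIF2 with GTP, eIF3 is the scaffold of the scanning complex, and the eIF4 group binds the cap and unwinds the leader. Elongation then runs on eEF1A, which delivers aminoacyl-tRNA, its exchange factor eEF1B, and eEF2, which moves the ribosome along. Growing myotubes depend on this machinery for protein accretion, and several of its mRNAs are of the terminal oligopyrimidine (TOP) class, whose translation follows mTORC1.

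The control line carries a control plasmid, the ERK3-depleted line was transfected with px459-Mapk6sg and the MK5-depleted line with px459-Mk5sg. Mapk6 encodes ERK3, an atypical member of the MAP kinases, and Mapkapk5 encodes MK5, a kinase that binds it. RNA of every line was taken from dividing cells in growth medium (GM) and from cells kept 2 days in differentiation medium (DM2), with 3 poly-A libraries a group and 18 in all. All 3 lines are stable transfectants, the labels do not say whether a line is 1 clone or a pool, and nothing says that the 3 libraries of a group came from separate cultures. P-values therefore measure only the spread between these libraries, which may be technical.

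Libraries held 17474562 to 23423050 counts in genes. Levels are given as CPM, counts brought to a common library size with TMM scaling, and, where genes are set side by side, as the deposited TPM, which are per length. Mapk6 stood at 119 to 150 CPM in control and 105 to 133 CPM in ERK3-depleted GM libraries, and at 204 to 219 CPM against 96.8 to 136 CPM at DM2. In MK5-depleted libraries it stood at 142 to 175 CPM in GM and 153 to 163 CPM at DM2. There it was also below control (edgeR log2 difference -0.40, adjusted p = 0.0115, against -0.86, adjusted p = 2.18e-05, in ERK3-depleted cells). Mapkapk5 had few uniquely counted reads, with 0.951 to 1.19 CPM in control, 0.644 to 0.877 CPM in ERK3-depleted and 0.58 to 0.825 CPM in MK5-depleted GM libraries, and it was not called there (adjusted p = 0.232 for MK5). At DM2 it was called lower in MK5-depleted cells (0.601 to 0.947 CPM, under every control library, adjusted p = 0.0443). By TPM it stood at 52.8 to 59.4 in control, 55.2 to 63.1 in ERK3-depleted and 30.9 to 35.6 in MK5-depleted GM libraries. A guide that shifts the reading frame need not remove the mRNA, so these levels do not measure the depletion. The myogenic regulator Myog ran from 10.1 to 42.9 CPM in GM and from 294 to 670 CPM at DM2. Summed markers of macrophages, endothelial cells and adipocytes stayed at or under 2.73, 0.526 and 10.2 CPM. The 6 fibroblast markers summed to 39.8 to 58.5 CPM in control GM libraries. At DM2 they summed to 81.5 to 134 CPM in control, 77.7 to 106 CPM in ERK3-depleted and 58.2 to 93.9 CPM in MK5-depleted libraries. The 4 neuron markers summed to 105 to 214 CPM in GM and 43.1 to 80.8 CPM at DM2. The 7 markers of differentiated muscle summed to 1940 to 2340 CPM in control, 1090 to 1750 CPM in ERK3-depleted and 1260 to 2250 CPM in MK5-depleted DM2 libraries. The 5 myoblast markers summed to 1860 to 2050, 2730 to 3140 and 2530 to 2990 CPM and the 3 smooth muscle markers to 130 to 143, 151 to 216 and 193 to 233 CPM in the same 3 groups. In GM the myoblast markers summed to 1140 to 1320 CPM in control, 1570 to 1760 CPM in ERK3-depleted and 1470 to 1730 CPM in MK5-depleted libraries. For the differentiated muscle markers the sums there were 63.1 to 114, 117 to 190 and 74.8 to 143 CPM. Fibroblast markers stood at 29.6 to 34.8 and 28.6 to 29.2 CPM in the ERK3-depleted and MK5-depleted GM libraries, below control. The part of these markers in the results was not tested. Reads assigned to no gene were taken from the reverse-strand count and include reads on a gene's opposite strand. They made up 4.34 to 5.89% of reads in the GM and control DM2 libraries. At DM2 they made up 8.05, 9.78 and 5.54% in ERK3-depleted libraries 1, 2 and 3, and 6.86, 7.0 and 4.62% in the MK5-depleted ones. Counted without strand they made up 2.4 to 3.22% in the GM and control DM2 libraries. In the same DM2 libraries they made up 5.55, 7.73 and 3.785% with ERK3 depleted and 3.96, 4.11 and 2.84% with MK5 depleted.

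The factor mRNAs spanned more than 4 orders of magnitude in control GM cells. Eef1a1 was the third most abundant mRNA of all, with a mean of 10680 TPM ± 646 (SD, n = 3). It was followed among the members by Eef1b2 with 1704 TPM ± 164, Eef2 with 1685 TPM ± 133 and Eif1 with 1313 TPM ± 72.1. Eef1b2 and Eef2 did not differ beyond their spread. At the other end stood Eif5a2 with 6.21 TPM ± 0.782, the eIF3 subunit copy Eif3j1 with 4.94 TPM ± 0.191 and the eEF1A methyltransferase Eef1akmt3 with 0.43 TPM. All members summed to 2.33 to 2.47% of TPM in control GM and 2.37 to 2.41% in control DM2 libraries, which overlap. The sum was 1.71 to 2.03% in ERK3-depleted and 2.00 to 2.23% in MK5-depleted DM2 libraries, both below every control library. Eef1a1 alone had 10200 TPM ± 174 in control, 6878 TPM ± 509 in ERK3-depleted and 8239 TPM ± 779 in MK5-depleted cells at DM2. These falls are on the TPM scale. In counts the log2 difference of Eef1a1 from control was -0.29 and -0.03 in these lines. With edgeR on RSEM expected counts it was 0.09 and 0.12 (adjusted p = 0.388 and 0.257). The members' median log2 difference in counts was 0.15 and 0.17.

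Differentiation of control cells moved the factor genes little. Of the 57 tested members 6 rose and 15 fell from GM to DM2 (edgeR, Benjamini-Hochberg adjusted p under 0.05 over all genes), against 22.5% of all tested genes higher and 23.1% lower. None changed by more than 2-fold, and the members' median log2 fold change was -0.09. The split turned to 12 higher and 3 lower when the deposited TPM were compared, on which the median of all genes moved by 0.12. The GM and DM2 libraries did not overlap for 41 of the 57, against 63.4% of all tested genes. Leaving out 1 library ended the call of 9 of the 21 members (Eef1a1, Eef1d, Eif1a, Eif2a, Eif2b1, Eif3a, Eif3k, Eif4h and Eif5), with a highest adjusted p of 0.2, for Eef1a1.

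Among the risers the cap-binding repressor eIF4E2 led. Eif4e2 (chromosome 1, 87213914 to 87240488) read 121, 126 and 123 CPM in control GM and 176, 176 and 183 CPM in control DM2 libraries. All 3 DM2 libraries lay above all 3 GM libraries. The gene rose by 0.54 ± 0.0653 on the log2 scale (adjusted p = 2.8e-06). Eif4e3, another cap-binding relative, took the opposite course, with 34.0, 33.6 and 28.8 CPM in GM and 23.2, 21.7 and 21.1 CPM at DM2. It fell by 0.55 ± 0.121 (adjusted p = 0.00124), while Eif4e itself was not called in any of the 11 comparisons. By TPM, Eif4e2 made up 34.5 to 36.5% of the 3 cap-binding mRNAs in control GM and 43.1 to 45.1% in control DM2 libraries (exact permutation p = 0.1, the smallest that 3 against 3 can give).

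Start-site factors split in the control line. Eif1a, which helps open the small subunit for scanning, rose by 0.38, and Eif5, the GTPase activator of eIF2, rose by 0.32. The X-linked copy of the former, Eif1ax, fell by 0.40, from 219, 222 and 222 CPM to 153, 164 and 184 CPM. Eif2d and Eif2a, which can deliver initiator tRNA without eIF2, fell by 0.50 and 0.26. Eif2d went from 48.8, 53.9 and 51.2 CPM to 36.8, 37.5 and 34.6 CPM with no overlap (adjusted p = 1.93e-05). Of the 4 tested genes grouped here with eEF1B 3 fell, against 23.1% of all tested genes. They were Eef1b2 by 0.37, Eef1g by 0.36 and Eef1d by 0.27, while Eef1e1 was not called. Of the 14 tested eIF3 genes Eif3h, Eif3i and Eif3k fell by 0.34 to 0.36 and the largest subunit, Eif3a, rose by 0.20. Of 9 members known as TOP mRNAs 6 fell and 0 rose, against 23.1% and 22.5% of all tested genes. With gene length and GC content entered as offsets for each library, Eef1a1, Eef1b2, Eef1d and Eif2a were no longer called (-0.12, -0.14, -0.10 and -0.10, adjusted p 0.21 to 0.39).

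In growth medium the depleted lines differed from control in few factor genes. ERK3 depletion gave 3 higher and 0 lower, against 3.72% and 3.06% of all tested genes. MK5 depletion gave 2 higher and 0 lower, against 4.71% and 3.74%. Both comparisons share the 3 control libraries. Eif5a, the hypusine-bearing factor that helps ribosomes through proline-rich stretches, was the leading one. It read 779, 630 and 680 CPM in control, 1060, 911 and 951 CPM in ERK3-depleted and 1030, 879 and 968 CPM in MK5-depleted libraries. Every depleted library lay above every control library. The differences were 0.48 ± 0.0932 (adjusted p = 0.0109) and 0.46 ± 0.0932 (adjusted p = 0.00857). Both calls were lost without control library 2 or library 1 of the depleted line, and the ERK3 call also without control library 3, with adjusted p up to 0.104 and 0.0845.

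Eif1ad, named for its eIF1A-like domain, read 44.0, 37.0 and 38.3 CPM in control, 59.8, 51.1 and 48.1 CPM in ERK3-depleted and 57.9, 47.8 and 55.9 CPM in MK5-depleted GM libraries. Again no depleted library overlapped a control library. It was higher by 0.42 (adjusted p = 0.0271) and 0.44 (adjusted p = 0.0179), calls lost without control library 2 or 3 or depleted library 1 (also MK5-depleted library 3), with adjusted p up to 0.181 and 0.129. Eif4a3, the helicase of the exon junction complex, was higher by 0.32 in ERK3-depleted cells (adjusted p = 0.0434), a call lost without any of the 6 libraries (adjusted p up to 0.223). With replicate number as a block, since same-numbered GM libraries of control and each depleted line deviated together, ERK3 depletion gave 6 higher and 1 lower and MK5 depletion 3 higher and 1 lower. Eif4b, a helper of the eIF4A helicase, was the lower gene in both, by 0.28 and 0.23 in that fit. Libraries did not overlap for 20 and 21 of the 57 members, against 31.1% and 32.1% of all tested genes.

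At DM2 the factor genes of the depleted lines stood apart from control in both directions. In ERK3-depleted cells 27 of 57 were higher and 12 lower, against 28% and 27.8% of all tested genes, and the members' median was 0.15. In MK5-depleted cells 25 were higher and 7 lower, against 22.2% and 22.9%, with a median of 0.17. On the deposited TPM, where the median of all genes moved by -0.46 and -0.29, the splits turned to 7 higher and 30 lower and to 5 higher and 21 lower. There the sign turned from higher to lower for several called members picked by the naming rule. In ERK3-depleted cells they were Eef1akmt1, Eef1b2, Eef1g, Eif1b, Eif2b1, Eif2b3, Eif2s3x, Eif3j1, Eif4a1, Eif4e2, Eif4e3 and Eif4g3. In MK5-depleted cells they were Eif2b3, Eif3j1, Eif4a1, Eif4e3, Eif4g3 and Eif5a. Other members called higher also had a mean TPM below control. Examples are Eif1ax, Eif5, Eif3g, Eif3h and Eif3i in ERK3-depleted and Eif3d and Eif3h in MK5-depleted cells. With each library's median shift taken out the splits were 26 higher and 14 lower and 23 higher and 6 lower. Libraries did not overlap for 43 and 38 members, against 60.3% and 56.9% of all tested genes. Both comparisons share the 3 control DM2 libraries, so their likeness is no independent support. More than 2-fold differences occurred in ERK3-depleted cells for 6 members (Eif5b, Eif2s2, Eif3j1, Eif4a1 and Eef2kmt higher, Eif5a2 lower) and in MK5-depleted cells for 0. Leaving out 1 library ended 10 of the 39 ERK3 calls (Eef1b2, Eif1ax, Eif2b1, Eif2b2, Eif2b3, Eif2s3x, Eif3g, Eif4b, Eif4enif1 and Eif5, adjusted p up to 0.199) and 11 of the 32 MK5 calls (Eef1akmt2, Eef1b2, Eef2kmt, Eif2a, Eif2b3, Eif3d, Eif4e3, Eif4g1, Eif4g2, Eif4g3 and Eif5a, adjusted p up to 0.176).

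**Figure D1:**
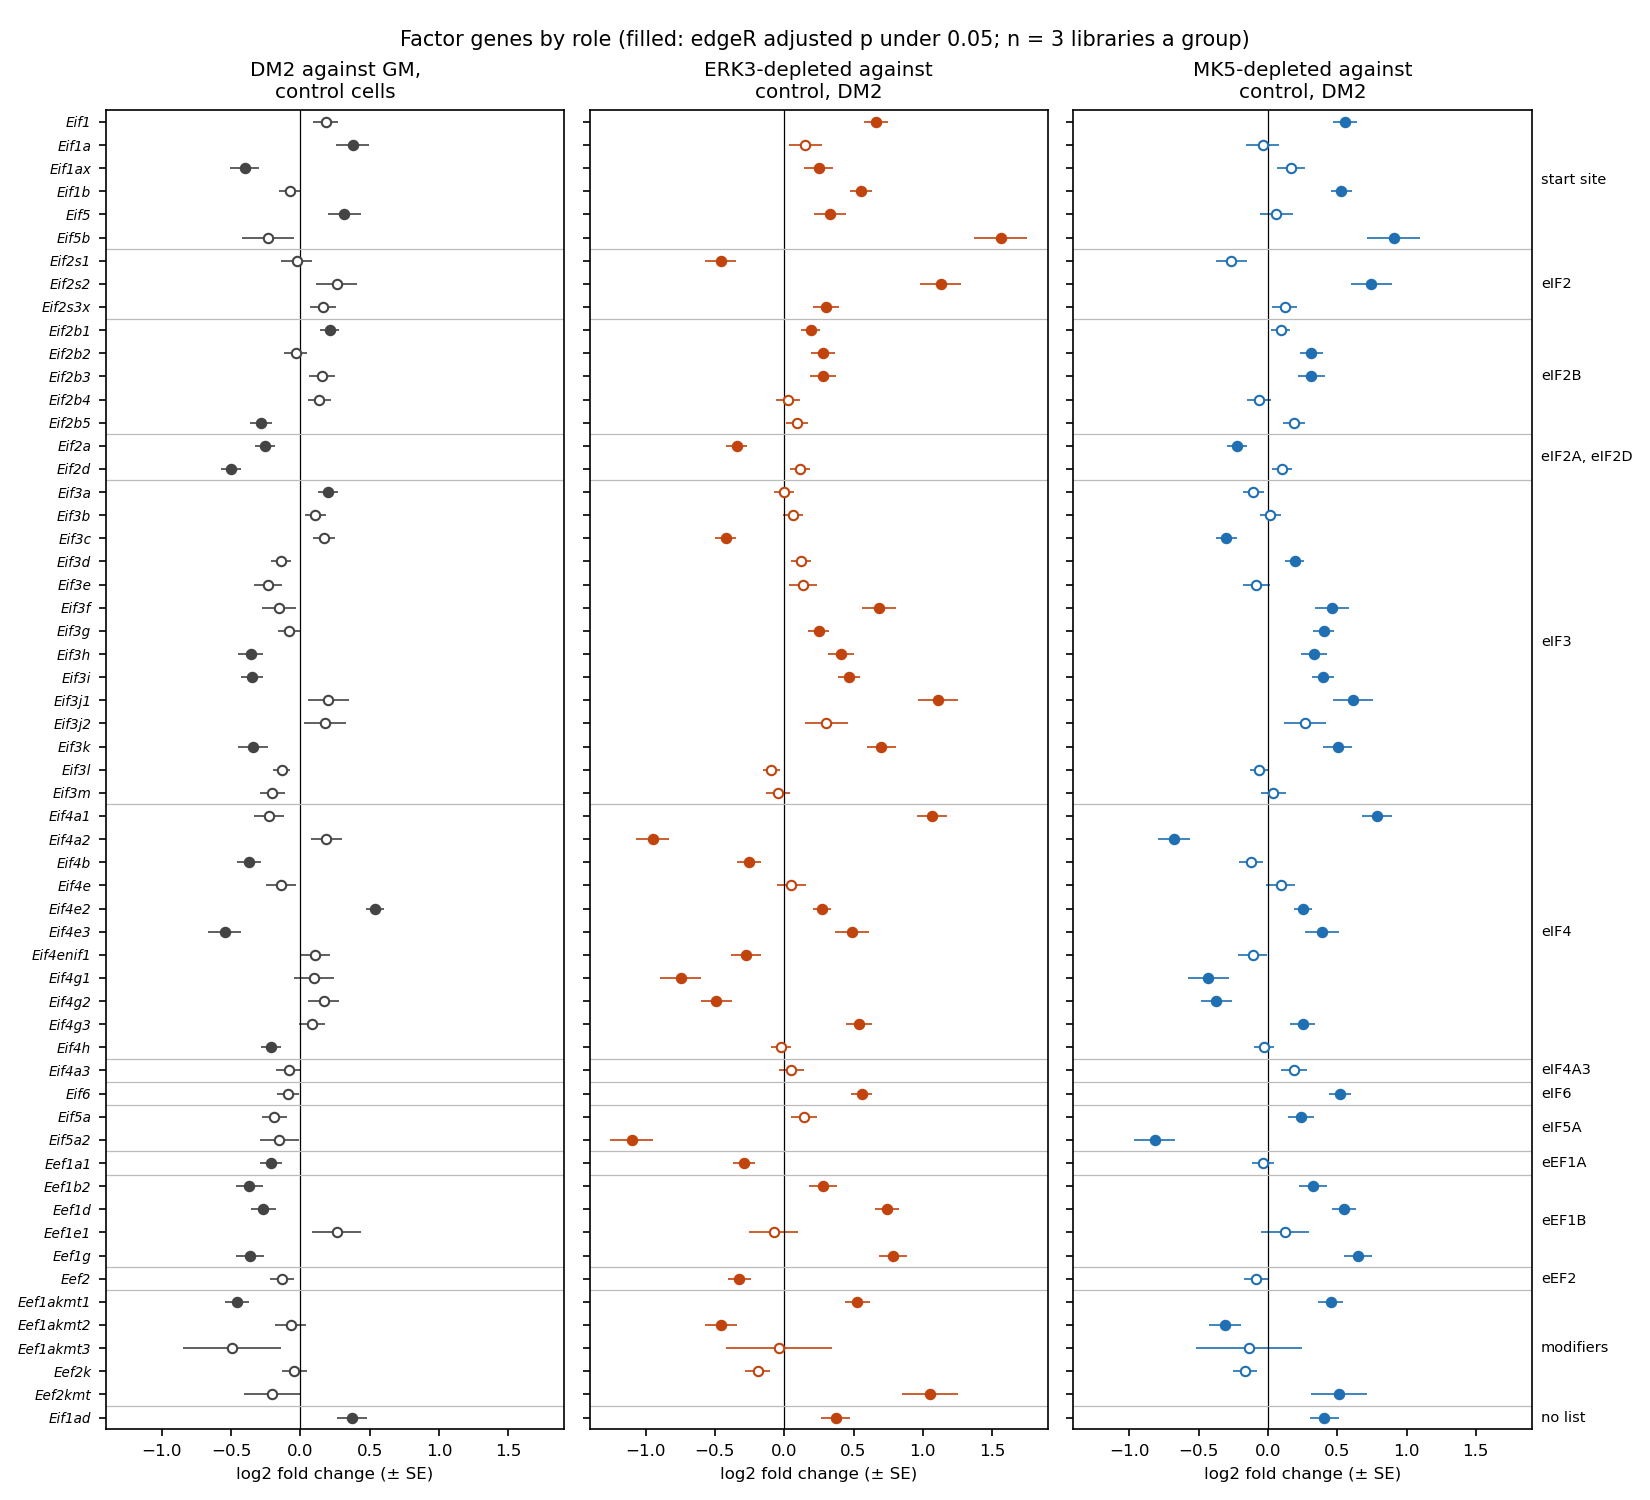
Log2 fold change (± SE) of the 57 tested factor genes, one row a gene and grouped by role, for DM2 against GM in control cells (left), ERK3-depleted against control at DM2 (middle) and MK5-depleted against control at DM2 (right), from 3 libraries a group. Filled points passed an adjusted p of 0.05 (6 higher and 15 lower, 27 and 12, 25 and 7), splits that turn to 12 and 3, 7 and 30, and 5 and 21 on the deposited TPM. Eif5b lies furthest to the right and Eif5a2 furthest to the left in both DM2 panels.

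The 4 libraries with the most reads assigned to no gene were ERK3-depleted 1 and 2 and MK5-depleted 1 and 2. They were also those furthest from control for Eif5b, Eif2s2, Eif4a1 and Eif4g1. Without them each depleted DM2 group has 1 library, whose spread is taken from the other groups. That fit called 14 members higher and 5 lower in ERK3-depleted cells, all among the 27 and 12, and 23 higher and 3 lower in MK5-depleted cells, of which 21 and 3 were among the 25 and 7. The part of these reads in each gene's difference was not tested beyond this. With length and GC offsets, 20 were higher and 14 lower in ERK3-depleted cells (18 and 10 shared with the first fit) and 17 higher and 4 lower in MK5-depleted cells (13 and 3 shared).

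**Figure D2:**
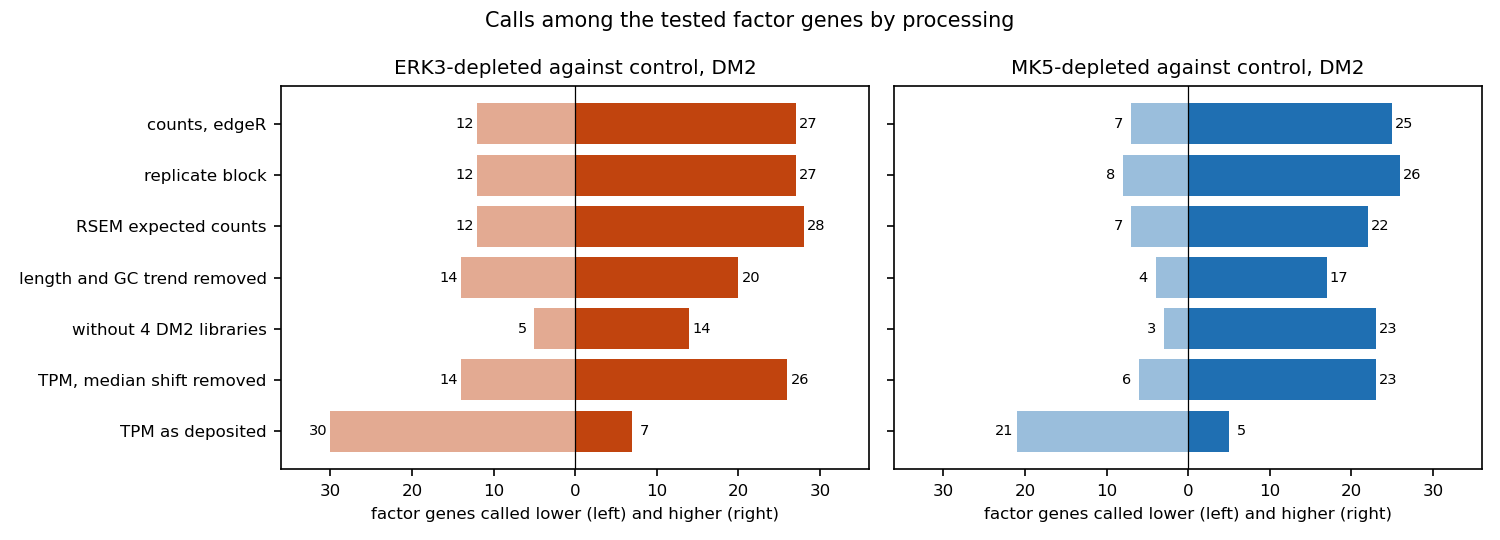
Number of factor genes called higher (right of 0) and lower (left of 0) in ERK3-depleted and MK5-depleted against control cells at DM2, one pair of bars for each way of processing. Higher calls outnumber lower ones for ERK3-depleted cells in 6 of the 7 settings, from 14 against 5 to 28 against 12, and the deposited TPM turn the split to 7 against 30.

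Eif5b, the GTPase that joins the large ribosomal subunit at the start codon (chromosome 1, 37998010 to 38055579), showed the largest difference. It read 198, 186 and 203 CPM in control DM2 libraries, 621, 755 and 357 CPM in ERK3-depleted and 420, 396 and 285 CPM in MK5-depleted ones. Library 3 of each depleted line was the lowest of its group and still above every control library. In GM all 9 libraries lay between 223 and 286 CPM. At DM2 the gene was 2.95-fold higher in ERK3-depleted cells (log2 1.56 ± 0.192, adjusted p = 8.46e-06) and 1.88-fold higher in MK5-depleted cells (0.91 ± 0.19, adjusted p = 0.00107). Without the 4 libraries named above the log2 differences were 0.86 (adjusted p = 0.000312) and 0.56 (adjusted p = 0.00305).

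Of the 5 other start-site genes tested, 4 were higher in ERK3-depleted cells at DM2 and 2, Eif1 and Eif1b, in MK5-depleted cells. Among all tested genes 28% and 22.2% were higher in these comparisons. Eif1, which guards start-codon choice, read 414, 389 and 445 CPM in control, 712, 693 and 570 CPM in ERK3-depleted and 660, 599 and 575 CPM in MK5-depleted libraries. Its level was higher by 0.66 ± 0.0893 (adjusted p = 1.44e-05) and 0.56 ± 0.0892 (adjusted p = 0.000147) with no overlap. Its copy Eif1b read 43.5, 45.4 and 44.3 CPM in control, 69.2, 66.1 and 60.5 CPM in ERK3-depleted and 68.6, 64.8 and 59.0 CPM in MK5-depleted libraries. Here too every depleted library exceeded every control library (0.55 and 0.53, adjusted p = 2.09e-05 and 7.67e-05). Eif5 was higher by 0.33 in ERK3-depleted cells, a call that ended without library 1 or 2 of either group (adjusted p up to 0.0969). Eif1ax was higher by 0.25, a call lost without control library 1 or 2 or depleted library 1 or 3 (adjusted p up to 0.187). By TPM Eif1ax was lower in every ERK3-depleted library, at 61.7, 42.5 and 90.0 against 102, 107 and 112 in control. Eif5 stood at 182, 171 and 167 against 184, 178 and 185 TPM.

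Within eIF2 the subunits moved apart. Eif2s2, the beta subunit (chromosome 2, 154871410 to 154892935), read 200, 194 and 230 CPM in control DM2 libraries, 490, 537 and 335 CPM in ERK3-depleted and 398, 366 and 280 CPM in MK5-depleted ones. It was higher by 1.13 ± 0.15 (adjusted p = 1.39e-05) and 0.75 ± 0.15 (adjusted p = 0.000759). Eif2s1, the alpha subunit that the stress kinases phosphorylate (chromosome 12, 78861819 to 78887010), read 141, 133 and 150 CPM in control, 103, 85.7 and 120 CPM in ERK3-depleted and 117, 110 and 125 CPM in MK5-depleted libraries. All depleted libraries lay below the control libraries. The difference was -0.46 ± 0.112 in ERK3-depleted cells (adjusted p = 0.00214) and was not called in MK5-depleted cells. It was -0.24 (adjusted p = 0.192) without the 4 libraries.

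By TPM the ratio of beta to alpha mRNA was 1.70, 1.60 and 1.75 in control GM and 2.29, 2.29 and 2.45 in control DM2 libraries. At DM2 it reached 11.3, 15.7 and 4.58 with ERK3 depleted and 6.09, 5.87 and 3.64 with MK5 depleted, where library 3 was again nearest to control. The part of RSEM's effective lengths and of shared reads in these TPM ratios was not tested. The gamma subunit, Eif2s3x, was higher by 0.30 in uniquely mapped reads of ERK3-depleted cells (adjusted p = 0.0103) and lower by RSEM expected counts (-0.26, adjusted p = 0.0138). Its expected counts were 11 times its unique counts, so most of its reads are shared with other copies and its direction is uncertain. Among the 5 eIF2B subunits Eif2b1, Eif2b2 and Eif2b3 were higher by 0.19 to 0.28 in ERK3-depleted and Eif2b2 and Eif2b3 by 0.31 in MK5-depleted cells. For Eif2b2 the sign turned with length and GC offsets (-0.19, adjusted p = 0.0136, and -0.08, adjusted p = 0.333).

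**Figure D3:**
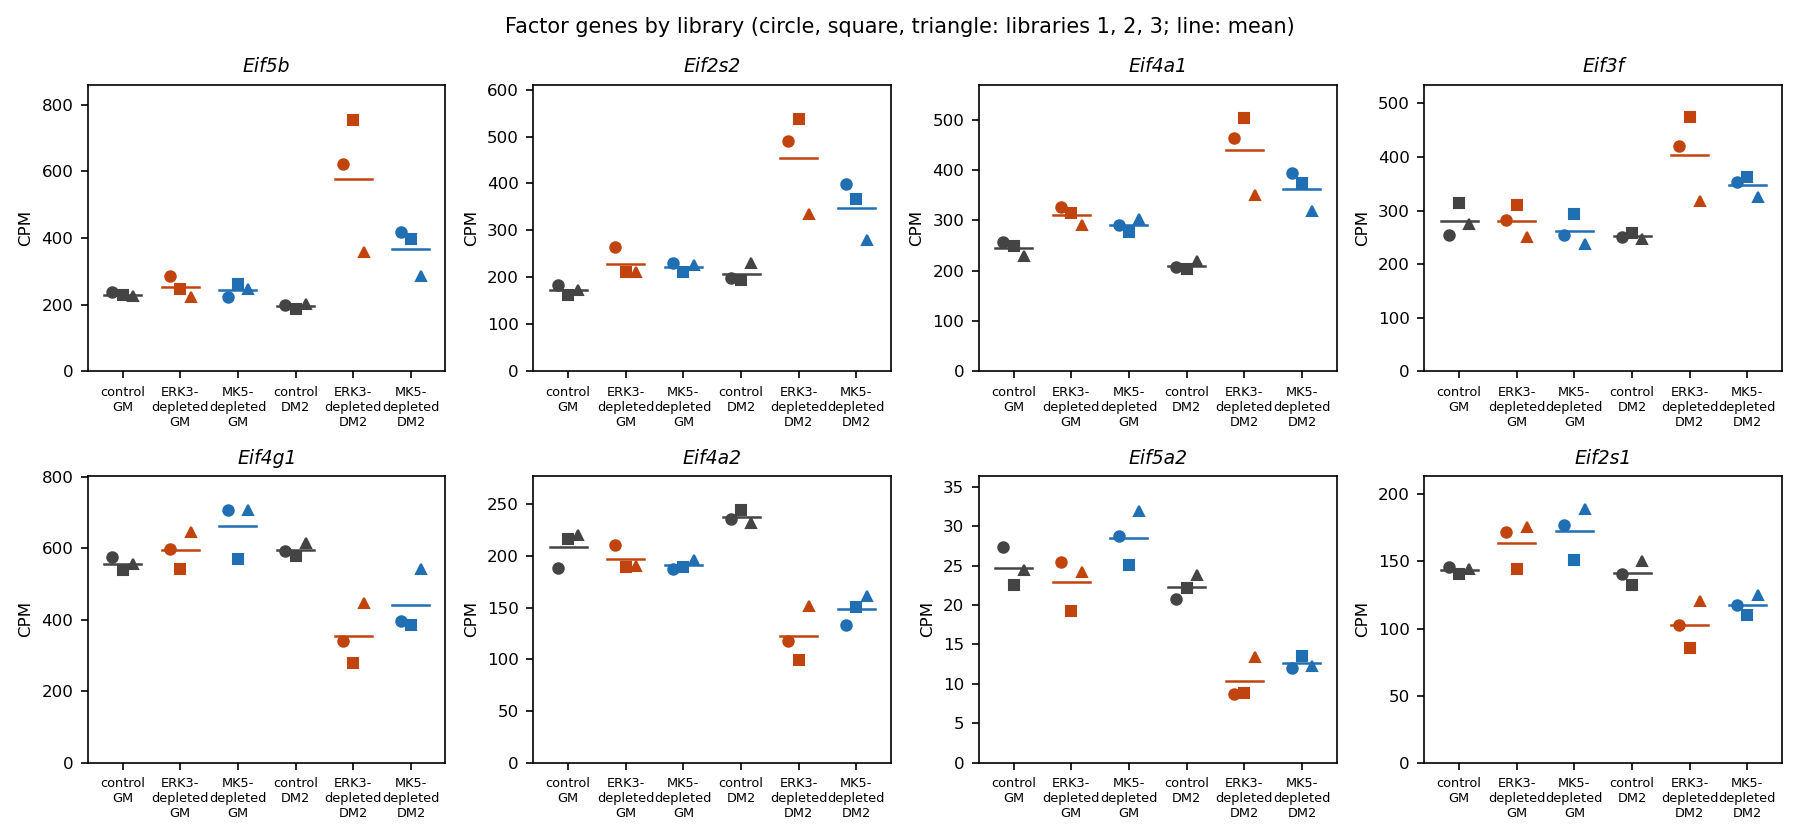
CPM of 8 factor genes in each library (vertical axis from 0), with 3 libraries a group as circle, square and triangle and the group mean as a line, in GM and DM2 for control (grey), ERK3-depleted (orange) and MK5-depleted (blue) cells. Eif5b, Eif2s2, Eif4a1 and Eif3f lie above control and Eif4g1, Eif4a2, Eif5a2 and Eif2s1 below it at DM2 in both depleted lines, with library 3 (triangle) of the ERK3-depleted line nearest to control in every one of them.

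The eIF3 complex was called higher for 6 and lower for 1 of its 14 tested genes in ERK3-depleted cells at DM2, and for 7 and 1 in MK5-depleted cells. Of all tested genes 28% were higher and 27.8% lower in the first comparison, and 22.2% and 22.9% in the second. Eif3f, a subunit known as a target of the ubiquitin ligase atrogin-1 in muscle wasting, read 251, 259 and 247 CPM in control, 421, 475 and 318 CPM in ERK3-depleted and 354, 364 and 325 CPM in MK5-depleted libraries. Its level was higher by 0.68 ± 0.124 (adjusted p = 0.000183) and 0.46 ± 0.123 (adjusted p = 0.00564). Without the 4 libraries the differences were 0.33 (adjusted p = 0.0801) and 0.38 (adjusted p = 0.0401). Eif3k, a small peripheral subunit, read 102, 102 and 98.3 CPM in control, 170, 186 and 135 CPM in ERK3-depleted and 137, 146 and 145 CPM in MK5-depleted libraries. It was higher by 0.70 (adjusted p = 3.77e-05) and 0.50 (adjusted p = 0.00108), and by 0.17 (adjusted p = 0.0267) and 0.06 (adjusted p = 0.453) with length and GC offsets.

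Eif3c, a core scaffold subunit, was the one eIF3 gene that was lower. It read 327, 319 and 338 CPM in control, 243, 233 and 257 CPM in ERK3-depleted and 262, 241 and 297 CPM in MK5-depleted DM2 libraries. The groups did not overlap (-0.42 ± 0.0787, adjusted p = 0.000227, and -0.30 ± 0.0786, adjusted p = 0.00506). By TPM the ratio of Eif3f to Eif3c was 0.88, 0.993 and 0.855 in the control libraries, against 2.45, 2.73 and 1.64 with ERK3 and 1.88, 2.15 and 1.33 with MK5 depleted. Eif3g, Eif3h and Eif3i were higher by 0.25 to 0.47 in counts in both lines. By mean TPM they were below control in ERK3-depleted cells, at 127, 400 and 212 against 154, 475 and 226.5. In MK5-depleted cells their mean TPM was 161, 449 and 232. Eif3j1 was higher by 1.11 and 0.62 in unique reads, from a control level of 5.80 to 6.51 CPM, and by 0.19 (adjusted p = 0.108) and 0.09 (adjusted p = 0.493) by RSEM expected counts, which were 3.37 times its unique counts.

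The eIF4 group divided almost evenly in ERK3-depleted cells, with 4 of 11 tested genes higher and 5 lower, and 4 higher and 3 lower in MK5-depleted cells. Shares of all tested genes were 28% higher and 27.8% lower in the former, and 22.2% and 22.9% in the latter. Eif4a1 and Eif4a2 encode closely related copies of the helicase that unwinds leaders. Eif4a2 (chromosome 16, 23107444 to 23114136) read 236, 245 and 232 CPM in control DM2 libraries, 118, 99.2 and 152 CPM in ERK3-depleted and 133, 151 and 162 CPM in MK5-depleted ones. It was lower by 0.95 ± 0.116 (adjusted p = 7.59e-06) and 0.68 ± 0.115 (adjusted p = 0.000226), and remained lower without the 4 libraries (-0.65 and -0.55, adjusted p = 0.000748 and 0.00175). Eif4a1 (chromosome 11, 69666936 to 69672423) read 208, 203 and 219 CPM in control, 465, 504 and 350 CPM in ERK3-depleted and 395, 374 and 319 CPM in MK5-depleted libraries. The difference was 1.07 ± 0.11 (adjusted p = 3.98e-06) and 0.79 ± 0.109 (adjusted p = 4.87e-05).

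The size of the Eif4a1 difference depends on reads that it shares with near-identical copies. Its RSEM expected counts were 2.68 times its unique counts, and they gave 0.28 in both depleted lines (adjusted p = 0.00573 and 0.00759). TPM with the median shift removed gave 0.10 and 0.13 (adjusted p = 0.195 and 0.132), and the deposited TPM gave -0.36 and -0.17 (adjusted p = 0.00262 and 0.14). Eif4a2 made up 28.5, 30 and 28.2% of the TPM of the pair in control DM2 libraries, 18.2, 16.5 and 21.1% with ERK3 depleted and 18, 21.4 and 19.5% with MK5 depleted. By unique reads per effective length its share was 49.1 to 52.7% in control, 15.6 to 28.3% in ERK3-depleted and 23.1 to 32% in MK5-depleted libraries. By TPM too the groups did not overlap (exact permutation p = 0.1, 0.225 after adjustment over 9 comparisons).

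The scaffold copies of eIF4G differed in direction in the counts. Eif4g1 (chromosome 16, 20668313 to 20692884) read 592, 579 and 614 CPM in control, 339, 278 and 447 CPM in ERK3-depleted and 396, 386 and 542 CPM in MK5-depleted DM2 libraries. It was lower by 0.75 ± 0.147 (adjusted p = 0.000382) and 0.43 ± 0.146 (adjusted p = 0.0231). Library 3 of the MK5-depleted line lay close under control. The MK5 call was lost without control library 3 or MK5-depleted library 1 or 2 (adjusted p up to 0.126), without the 4 libraries (-0.12, adjusted p = 0.487) and with length and GC offsets (-0.33, adjusted p = 0.0597). With the TPM median shift removed the differences were -0.21 (adjusted p = 0.0714) and -0.10 (adjusted p = 0.433).

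Eif4g2, a scaffold without the eIF4E site, was lower by 0.49 and 0.37 (adjusted p = 0.00139 and 0.0121), the second lost without MK5-depleted library 3 (0.0528). Eif4g3 was higher, with 106, 98.4 and 100 CPM in control, 149, 165 and 128 CPM in ERK3-depleted and 128, 116 and 119 CPM in MK5-depleted libraries. It differed by 0.54 (adjusted p = 9.3e-05) and 0.25 (adjusted p = 0.0315), the second lost without control library 2 or 3 or MK5-depleted library 1 or 3 (adjusted p up to 0.0992) and in the fit without the 4 libraries (0.24, adjusted p = 0.0913). By TPM all 3 means were below control, and the Eif4g1 share of the 3 scaffolds was 20.1 to 20.7% in control, 22.6 to 26.6% in ERK3-depleted and 20.5 to 28.4% in MK5-depleted libraries (exact permutation p = 0.1 and 0.2).

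Eif4e2 was again among the higher genes at DM2, with 176, 176 and 183 CPM in control, 221, 226 and 200 CPM in ERK3-depleted and 218, 208 and 212 CPM in MK5-depleted DM2 libraries. Its level was higher by 0.27 (adjusted p = 0.00179) and 0.25 (adjusted p = 0.00444), and by 0.09 in both with length and GC offsets (adjusted p = 0.177 and 0.228). The deposited TPM gave -0.15 in ERK3-depleted cells, and the test of the difference from the control response called it in neither line (adjusted p = 0.385 and 0.322). Its share of the cap-binding TPM was 43.1 to 45.1% in control, 46.9 to 60.3% in ERK3-depleted and 50.7 to 51.2% in MK5-depleted libraries. Eif4e, the canonical cap-binding protein, read 98.1 to 114 CPM in control, 96.8 to 124 CPM in ERK3-depleted and 104 to 119 CPM in MK5-depleted libraries, which overlap. By TPM, the scale of the shares, it stood at 185 to 205 in control, 79.6 to 171 in ERK3-depleted and 143 to 162 in MK5-depleted libraries with no overlap, and its share was 50.7 to 53%, 34.7 to 49.2% and 44.6 to 45.2%. Eif4e3 was higher by 0.49 and 0.39 (adjusted p = 0.00261 and 0.0151), and by 0.22 and 0.20 without the 4 libraries (adjusted p = 0.28 and 0.327).

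Eif5a2, the scarce copy of eIF5A (chromosome 3, 28781276 to 28798846), was the factor gene furthest below control. It read 20.7, 22.2 and 23.8 CPM in control DM2 libraries, 8.74, 8.87 and 13.5 CPM in ERK3-depleted and 12, 13.5 and 12.3 CPM in MK5-depleted ones. No depleted library reached the lowest control library. The difference was -1.10 ± 0.152 (adjusted p = 1.79e-05) and -0.82 ± 0.149 (adjusted p = 0.000365), and -0.73 and -0.85 without the 4 libraries (adjusted p = 0.00944 and 0.00332). Eif5a itself read 591 to 637 CPM in control, 616 to 708 CPM in ERK3-depleted and 662 to 762 CPM in MK5-depleted libraries, where it was higher by 0.24 (adjusted p = 0.0464). That call was lost without any control DM2 library or without MK5-depleted library 1 or 3 (adjusted p up to 0.175), and with length and GC offsets the value was -0.01.

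Promoters were searched for motifs, for all members that have one in the table, in the 250 bases before the RefSeq start, on both strands. The E-box CACGTG, the letters bound by MYC and related factors, was in 11 of 46 members with a promoter in the table (23.9%), against 9.81% of 9684 tested protein-coding genes and 6.86% of all 27025. The ETS-type CGGAAG was in 19 (41.3%, against 28.9% and 15.3%), and the ATF4-type TGATGNAA in 2 (4.35%, against 2.46% and 3.91%). The 11 with the E-box are Eef2, Eif1b, Eif3f, Eif3k, Eif4a1, Eif4g1 and Eif5a2, which were called in ERK3-depleted cells at DM2, and Eef2k, Eif4e, Eif4h and Eif5a, which were not. Of all 57 tested members 68.4% were called in that comparison, and of all tested genes 28% were higher and 27.8% lower. The 7 called of 11 therefore do not stand out among the members. Windows of 36 bases (GRCm38.p6, RefSeq, E-box in capitals, 5′ to 3′ on the gene's strand) are shown for the 7 called genes, those below control first.
Eif5a2, chr3:28781120-28781155, plus strand: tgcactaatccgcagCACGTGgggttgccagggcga
Eif5a2, chr3:28781145-28781180, plus strand: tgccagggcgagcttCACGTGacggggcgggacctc
Eif4g1, chr16:20672658-20672693, plus strand: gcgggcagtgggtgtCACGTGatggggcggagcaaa
Eef2, chr10:81176573-81176608, plus strand: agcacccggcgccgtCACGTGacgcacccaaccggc
Eif4a1, chr11:69672592-69672627, minus strand: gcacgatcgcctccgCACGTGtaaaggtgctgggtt
Eif3f, chr7:108934332-108934367, plus strand: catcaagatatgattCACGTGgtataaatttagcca
Eif3k, chr7:28981912-28981947, minus strand: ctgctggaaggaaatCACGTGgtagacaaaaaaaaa
Eif1b, chr9:120492567-120492602, plus strand: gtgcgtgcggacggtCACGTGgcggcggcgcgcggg
The pair in Eif5a2 lies 142 and 117 bases before the start, those of Eif4g1, Eef2, Eif3f, Eif3k and Eif1b lie 24 to 68 bases before it, and that of Eif4a1 189 bases before it. In ERK3-depleted cells Eif5a2, Eif4g1 and Eef2 were lower and the other 4 higher, so genes with the same letters moved in both directions.

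In counts of ERK3-depleted cells elongation genes split between eEF1A and its exchange factor. Eef1g, the gamma subunit of eEF1B, read 119, 118 and 124 CPM in control DM2 libraries, 220, 235 and 167 CPM in ERK3-depleted and 198, 189 and 177 CPM in MK5-depleted ones. It was higher by 0.79 ± 0.101 (adjusted p = 1.02e-05) and 0.65 ± 0.101 (adjusted p = 0.000123). By RSEM expected counts, 3.0 times its unique counts, the values were 0.63 and 0.57. On the deposited TPM the ERK3 value was -0.08 (limma-trend adjusted p = 0.322). Mean TPM in MK5-depleted cells was 351 against 332 in control. Eef1d, which exchanges the nucleotide of eEF1A, read 201, 215 and 223 CPM in control, 358, 404 and 306 CPM in ERK3-depleted and 315, 299 and 320 CPM in MK5-depleted libraries. The groups did not overlap (0.74 and 0.55, adjusted p = 6.57e-06 and 0.000153), and with length and GC offsets the values were 0.19 (adjusted p = 0.0331) and 0.09 (adjusted p = 0.322). Eef1b2, the other exchange subunit, was higher by 0.28 and 0.32 and turned to -0.20 and -0.06 in that fit (adjusted p = 0.0648 and 0.631).

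Eef1a1, the bulk carrier of aminoacyl-tRNA, read 5165, 5283 and 5137 CPM in control, 4139, 4337 and 4255 CPM in ERK3-depleted and 4667, 5099 and 5461 CPM in MK5-depleted DM2 libraries. It was lower by 0.29 in ERK3-depleted cells (adjusted p = 0.00489) and not called in MK5-depleted cells, whose libraries overlap control. By RSEM expected counts, 2.28 times the unique counts, the ERK3 value was 0.09 (adjusted p = 0.388). Eef2, the translocase, read 3655, 3806 and 3486 CPM in control, 2785, 2893 and 3074 CPM in ERK3-depleted and 3194, 3365 and 3737 CPM in MK5-depleted libraries. It was lower by 0.32 in ERK3-depleted cells (adjusted p = 0.00393), with no overlap, and by 0.25 without the 4 libraries (adjusted p = 0.117). Its kinase Eef2k, which halts elongation, was not called in any of the 11 comparisons. Of the 9 TOP members 5 were higher and 3 lower in ERK3-depleted cells, and 5 and 0 in MK5-depleted cells, against 28% and 27.8% and against 22.2% and 22.9% of all tested genes.

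Among the enzymes that modify elongation factors, Eef2kmt, the lysine methyltransferase of eEF2, read 19.3, 19.3 and 16.5 CPM in control, 41.3, 50.6 and 22.2 CPM in ERK3-depleted and 28.6, 27.7 and 22.4 CPM in MK5-depleted DM2 libraries. Library 3 of both depleted lines was close to control. The gene was higher by 1.05 ± 0.201 (adjusted p = 0.000307) and 0.52 ± 0.202 (adjusted p = 0.0454), and by 0.27 and 0.30 without the 4 libraries (adjusted p = 0.208 and 0.146). The MK5 call was lost without any control library or without MK5-depleted library 1 or 2 (adjusted p up to 0.137). Eef1akmt1, which methylates eEF1A, was higher by 0.53 and 0.45 and Eef1akmt2, another such enzyme, lower by 0.46 and 0.31. Outside these groups Eif6, which keeps the ribosomal subunits apart, read 107, 107 and 107 CPM in control, 169, 166 and 138 CPM in ERK3-depleted and 155, 144 and 159 CPM in MK5-depleted libraries. Its level was higher by 0.56 ± 0.0783 (adjusted p = 1.98e-05) and 0.52 ± 0.0782 (adjusted p = 9.2e-05).

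**Figure D4:**
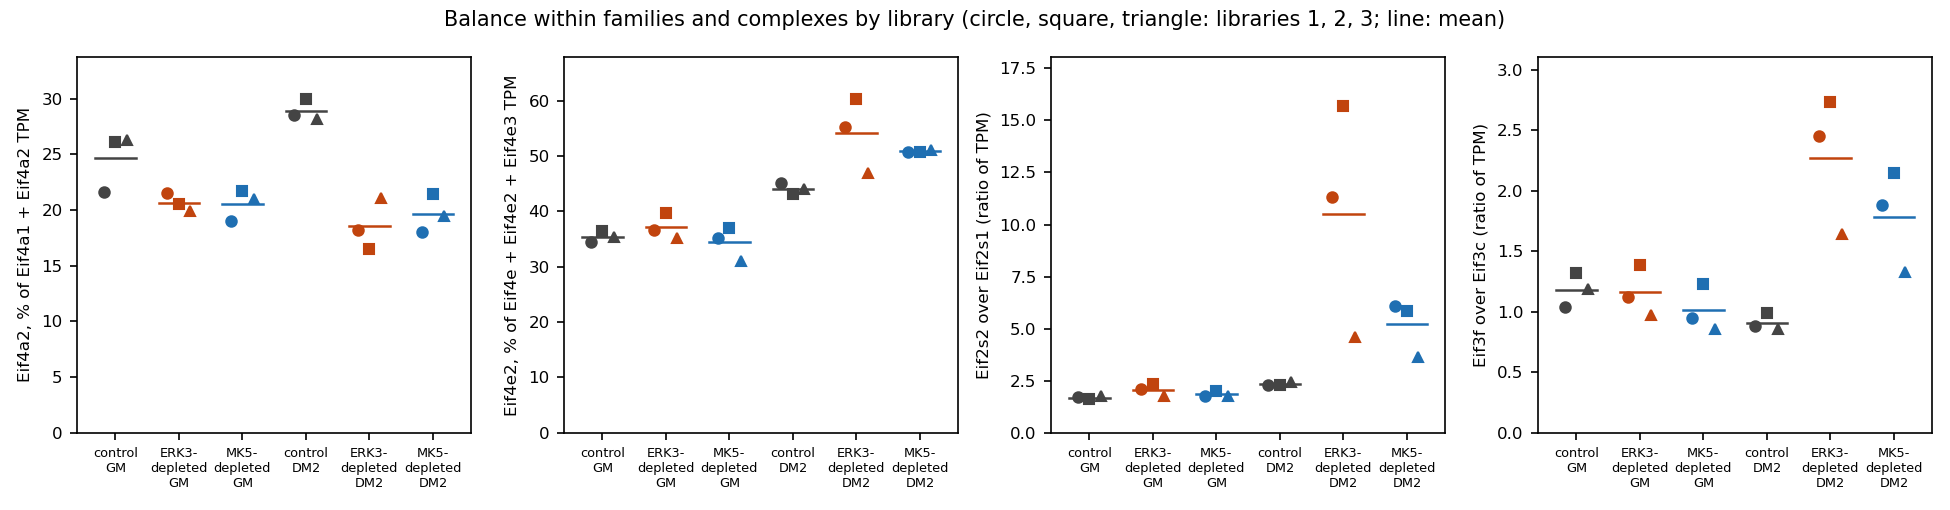
Balance within 2 families and 2 complexes in each library, by deposited TPM with 3 libraries a group (circle, square, triangle) and the mean as a line: Eif4a2 as a percent of Eif4a1 and Eif4a2, Eif4e2 as a percent of Eif4e, Eif4e2 and Eif4e3, and the ratios of Eif2s2 to Eif2s1 and of Eif3f to Eif3c (all axes from 0). At DM2 the Eif4a2 share is 28.2 to 30% in control and at most 21.4% in the depleted lines, and the Eif2s2 to Eif2s1 ratio is 2.29 to 2.45 in control and at least 3.64 in them.

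The response to differentiation medium itself differed between lines. In ERK3-depleted cells 18 members rose and 17 fell from GM to DM2, against 28.9% and 26.2% of all tested genes, and in MK5-depleted cells 13 rose and 15 fell, against 24.6% and 24.8%. On the deposited TPM the splits were 10 and 30 for the ERK3-depleted line and 6 and 20 for the MK5-depleted line, and without the 4 libraries 8 and 12 for the former. Eif5b rose by 1.19 and 0.59 and Eif2s2 by 0.99 and 0.65 in these lines, while neither was called in control. For Eif2s2 the difference from the control response was called for ERK3 (0.73, adjusted p = 0.0179) and not for MK5 (adjusted p = 0.2). Eif5a2 fell by 1.15 and 1.18, and Eif4g1 by 0.75 and 0.58. The test of the difference from the control response called 16 members higher and 7 lower for ERK3-depleted cells, against 14.6% and 14% of all tested genes, and 11 higher and 5 lower for MK5-depleted cells, against 8.54% and 9.48%. On the deposited TPM these were 3 and 26 for ERK3 and 0 and 8 for MK5, with length and GC offsets 10 higher for ERK3 and 1 higher and 2 lower for MK5, and without the 4 libraries 1 and 2 for ERK3. Leaving out 1 library ended 9 of the 23 ERK3 calls and 14 of the 16 MK5 calls. The interaction of Eif5b was 1.43 (adjusted p = 0.00318) for ERK3, kept without any 1 of the 12 libraries. For MK5 it was 0.82 (adjusted p = 0.0415), lost without 10 of the 12 (all but MK5-depleted GM library 2 and DM2 library 3, adjusted p up to 0.0998). For Eif5a2 it was -0.99 and -1.03 (adjusted p = 0.00438 and 0.00725), both kept without any 1 library, and the ERK3 value was -0.63 (adjusted p = 0.1) without the 4 libraries.

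The unpaired fit called no member between the depleted lines. In GM 0 of 57 were called, against 0% of all tested genes, with 2 members at an unadjusted p under 0.05 and a smallest adjusted p of 0.506. At DM2 again 0 were called, against 0%, with 13 at an unadjusted p under 0.05 and a smallest adjusted p of 0.137, for Eif3j1 and Eif5b. Eif5b was lower in MK5-depleted than in ERK3-depleted cells by 0.65 on the log2 scale. Same-numbered ERK3-depleted and MK5-depleted DM2 libraries deviated together (correlations 0.281, 0.342 and 0.498). With replicate number as a block and the 6 libraries of this comparison alone, Eif5b was called lower in MK5-depleted cells (-0.60, adjusted p = 0.0229) and no other member was. It was lower within each numbered pair, at 420 against 621, 396 against 755 and 285 against 357 CPM. DESeq2 called 1 lower, the fit with no filter 1 higher and 3 lower, that with offsets and block 2 and 2, and the edgeR fit without ERK3-depleted library 3 called 9 and 13.

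Other genes of the translation pathway, 77 tested in 7 lists, gave the setting of these changes. In control cells 27 rose and 8 fell with differentiation, against 22.5% and 23.1% of all tested genes, and 29 and 2 did so on the deposited TPM. Of 22 aminoacyl-tRNA synthetases 10 rose and 2 fell. Aars rose by 0.88, Nars by 0.75 and Iars by 0.74, and Ppp1r15a, which directs dephosphorylation of eIF2 alpha, by 1.16. In GM 7 synthetases were higher in ERK3-depleted and 8 in MK5-depleted cells and 0 lower, such as Aars by 0.50 and 0.59, against 3.72% and 4.71% of all tested genes higher. With 1 library left out the counts ran from 0 to 9 and from 0 to 11, and the deposited TPM gave 0 and 1. Dhps, the enzyme that starts hypusine formation on eIF5A, was higher there by 0.47 and 0.29, and Eif4ebp1, the cap-complex inhibitor under mTORC1 control, by 0.44 and 0.37.

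At DM2 18 of the 77 were higher and 26 lower in ERK3-depleted cells, and 17 and 18 in MK5-depleted cells, against 28% and 27.8% and against 22.2% and 22.9% of all tested genes. On the deposited TPM they were 3 and 57 and 4 and 39, and without the 4 libraries 7 and 12 and 13 and 11. Eif4ebp1 was higher by 0.76 and 0.68 (adjusted p = 1.94e-05 and 0.000123). Gspt1, the termination factor eRF3a, was lower by 0.98 and 0.72, Dph1, which starts diphthamide formation on eEF2, by 1.39 and 0.89, and the mitochondrial initiation factor Mtif2 by 0.70 and 0.72. Among the synthetases 2 were higher and 6 lower in ERK3-depleted cells, with Eprs higher by 0.76 and Iars lower by 0.76, and 6 were higher and 2 lower in MK5-depleted cells.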

How the data were processed

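Poly-A libraries were made with a stranded kit, per the labels. The authors deposited raw counts of uniquely mapped reads per gene from STAR 2.5.1b, and the column for reverse-strand counting was used. The authors also deposited RSEM 1.2.28 expected counts and TPM, both used as alternatives, and TPM, compared as deposited, for setting genes side by side. The genome is GRCm38, per the submitters' processing notes. Symbols came from GENCODE M21, which matched 50376 of 50600 identifiers.

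edgeR 4.0.16 (R 4.3.3) was fitted to all 18 libraries with a mean per group, filterByExpr, TMM and robust quasi-likelihood tests of 11 contrasts, adjusted by Benjamini-Hochberg over 13939 genes and called under 0.05. Residual degrees of freedom were 12 and the common biological coefficient of variation 0.11. Lines that name no gene held 21.7 to 35.8% of the reads of a library and entered neither library sizes nor tests. They cover reads unmapped, mapped to several places, ambiguous or in no gene on the counted strand. The members and gene lists were chosen with earlier results of these data known.

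Genes are named by a rule: all copies of the paired families, up to 3 called members of each role with the largest change (or, with none called, the one with the smallest p), the 5 largest changes each way, untested members, and up to 3 called genes of each pathway list. Genes most like Eef1a2 were to be named too, but with 1 read in total it has no pattern. Shares within families were compared by exact two-sided permutation over 9 comparisons. The labels' titles number the libraries of each group. Same-numbered libraries deviated together across genes for control with ERK3-depleted (correlation of deviations from the group means 0.155 to 0.29) and with MK5-depleted GM cells (0.142 to 0.19) for control with ERK3-depleted DM2 cells (0.108 to 0.205), for ERK3-depleted with MK5-depleted DM2 cells (0.281 to 0.498) and for ERK3-depleted GM with DM2 cells (0.156 to 0.291). Blocked values stand beside the results they changed.

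Alternatives were RLE size factors, DESeq2 1.42.0, other filters, only the libraries of a contrast, the replicate block, RSEM counts (rounded), unstranded counts, length and GC offsets, limma-trend (limma 3.58.1) on log2(TPM + 1), and each library left out. Chosen after seeing the data were the fit without 4 libraries, TPM with each library's median shift removed, the replicate block within the DM2 libraries of the 2 depleted lines, and all alternatives for the other pathway genes. The edgeR script was tested on simulated data.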

Additional observations from a re-analysis of the deposited data

Results flagged for a closer look

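The response to differentiation medium differed from that of the control line, by edgeR's test of the difference of the log2 fold changes, in 23 members for ERK3-depleted and 16 for MK5-depleted cells, with adjusted p from 0.003 to 0.0468 and from 0.00725 to 0.0415. For ERK3-depleted cells the log2 response was higher by the values given for Eif5b (1.43), Eif3j1 (1.14), Eef2kmt (0.91), Eif2s2 (0.73), Eif4a1 (0.72), Eif3f (0.68), Eif4g3 (0.64), Eif3k (0.61), Eef1g (0.55), Eef1d (0.51), Eif4e3 (0.47), Eif3h (0.45), Eif1 (0.41), Eef1akmt1 (0.38), Eif1b (0.36) and Eif6 (0.34). It was lower for Eif5a2 (-0.99), Eif4a2 (-0.87), Eif4g1 (-0.85), Eif2s1 (-0.65), Eef1akmt2 (-0.62), Eif3c (-0.49) and Eif2a (-0.28). For MK5-depleted cells it was higher for Eif5b (0.82), Eif3f (0.56), Eif3k (0.55), Eif4a1 (0.55), Eif3h (0.46), Eif1 (0.46), Eef1akmt1 (0.46), Eef1g (0.46), Eif1b (0.44), Eef1d (0.42) and Eif6 (0.38). It was lower for Eif5a2 (-1.03), Eif4g1 (-0.68), Eif4a2 (-0.55), Eif2s1 (-0.53) and Eif3c (-0.41). Both sets use the same 6 control libraries. In the edgeR fit of RSEM expected counts, the ERK3 value was 0.005 for Eif4a1 (adjusted p = 0.979) and 0.27 for Eif3j1 (adjusted p = 0.159). The MK5 value of Eif4a1 was 0.035 there (adjusted p = 0.849). That fit kept the ERK3 calls of Eif2s2, Eif1, Eif4a2 and Eef1g and the MK5 call of Eef1g, and lost the MK5 calls of Eif1 and Eif4a2. Leaving out 1 library at a time ended 9 of the 23 and 14 of the 16 calls, and Eif5a2 and Eif1b were the 2 of the MK5 set that kept theirs. Without the 4 DM2 libraries with the most reads assigned to no gene each depleted DM2 group has 1 library. Fewer ERK3 and MK5 differences were then called. No group has 4 or more libraries, so no library was tested as standing apart from its group.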

How the results depend on the processing

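No named log2 fold change turned its sign with RLE size factors, DESeq2, the filter of 1 CPM in 3 libraries, unstranded counts or the replicate block. The block in the fit of all 18 libraries moved only counts of the GM comparisons with control by over 1.5 times. With the block and only the libraries of the contrast there was 1 lower for MK5 against ERK3 at DM2. Same-numbered libraries also deviated together for ERK3 with MK5 in GM (0.07, 0.344 and 0.206, against a mean of -0.103 for other numbers). For MK5 with control at DM2 the correlations were weaker (0.165, 0.055 and 0.083, against -0.052). Signs were mixed for control GM with DM2 (0.172, -0.021 and 0.024) and for MK5 GM with DM2 (-0.07, 0.222 and -0.092). With 3 libraries a group an exact test of a family's share cannot go below 0.1. The depth gave no comparison of Eef1a2, Eif4e1b and Eif2s3y, and 8 to 29 counts a library for Eef1akmt3. Fits without 1 library of a group have 2 there, and fits without the 4 libraries have 1.

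Counts of called factor genes that moved by over 1.5 times, with ERK3 and MK5 standing for each depleted line against control, were as follows, and the cause was not tested. With only the libraries of the contrast there were 12 higher for control DM2 against GM, 11 higher for ERK3 DM2 against GM, 5 higher for ERK3 in GM and 5 higher for MK5 in GM. With length and GC offsets there were 11 higher for control DM2 against GM, 4 lower for MK5 at DM2, 10 higher for the ERK3 response difference and 1 higher and 2 lower for the MK5 response difference. With these offsets and the replicate block there were 11 higher for control DM2 against GM, 6 higher and 1 lower for ERK3 in GM, 5 higher and 1 lower for MK5 in GM, 2 higher and 2 lower for MK5 against ERK3 at DM2, 11 lower for the ERK3 response difference and 3 higher for the MK5 response difference. On the deposited TPM there were 12 higher and 3 lower for control DM2 against GM, 10 higher and 30 lower for ERK3 DM2 against GM, 6 higher for MK5 DM2 against GM, 0 higher for ERK3 in GM, 0 higher for MK5 in GM, 7 higher and 30 lower for ERK3 at DM2, 5 higher and 21 lower for MK5 at DM2, 3 higher and 26 lower for the ERK3 response difference and 0 higher and 8 lower for the MK5 response difference. Without the 4 libraries there were 8 higher for ERK3 DM2 against GM, 14 higher and 5 lower for ERK3 at DM2, 3 lower for MK5 at DM2, 1 higher and 2 lower for the ERK3 response difference and 5 higher for the MK5 response difference. With no filter there were 5 higher for ERK3 in GM, 1 higher and 3 lower for MK5 against ERK3 at DM2 and 7 higher for the MK5 response difference. With the replicate block there were 6 higher and 1 lower for ERK3 in GM and 1 lower for MK5 in GM. By DESeq2 there were 9 higher and 1 lower for ERK3 in GM and 1 lower for MK5 against ERK3 at DM2. On TPM with the median shift removed there were 7 higher for the MK5 response difference. Counts of called members with 1 library left out at a time ran from 2 to 4 higher for control DM2 against GM and from 8 to 14 higher for MK5 DM2 against GM. In GM they ran from 0 to 2 higher and 0 to 1 lower for ERK3 and for MK5. At DM2 they ran from 4 to 7 lower for MK5, and from 0 to 9 higher and 0 to 13 lower for MK5 against ERK3, the highest without ERK3-depleted library 3. The response differences ran from 8 to 17 higher and 6 to 12 lower for ERK3 and from 2 to 11 higher and 1 to 6 lower for MK5.

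Log2 fold changes of named members that turned their sign were these, and the cause was not tested. With RSEM expected counts the values were Eif4a1 -0.11 for ERK3 DM2 against GM, Eif4a1 -0.0817 for MK5 DM2 against GM and Eef1a1 0.0892 and Eif2s3x -0.26 for ERK3 at DM2. On the deposited TPM the values were Eef1d -0.0198, Eif1b -0.0302, Eif2b1 -0.18, Eif2b5 0.0113 and Eif4a1 -0.53 for ERK3 DM2 against GM, Eif2b1 -0.0443 and Eif4a1 -0.35 for MK5 DM2 against GM, Eef1akmt1 -0.0113, Eef1b2 -0.18, Eef1g -0.0757, Eif1b -0.0153, Eif2b1 -0.55, Eif2b3 -0.0822, Eif2s3x -0.89, Eif3j1 -0.21, Eif4a1 -0.36, Eif4e -0.79, Eif4e2 -0.15, Eif4e3 -0.15 and Eif4g3 -0.14 for ERK3 at DM2, Eif2b3 -0.0258, Eif3j1 -0.21, Eif4a1 -0.17, Eif4e3 -0.0113, Eif4g3 -0.17 and Eif5a -0.0454 for MK5 at DM2, Eef1akmt1 -0.0654, Eef1g -0.17, Eif1b -0.11, Eif3j1 -0.15, Eif4a1 -0.54, Eif4e2 -0.27, Eif4e3 -0.0608 and Eif6 -0.0317 for the ERK3 response difference and Eef1g -0.0719, Eif4a1 -0.36 and Eif6 -0.022 for the MK5 response difference. With length and GC offsets the values were Eef1d -0.00225 for ERK3 DM2 against GM, Eef1b2 -0.20 and Eif2b2 -0.19 for ERK3 at DM2, Eef1b2 -0.0602, Eif2b2 -0.0762 and Eif5a -0.0102 for MK5 at DM2 and Eef1d -0.0571 for the MK5 response difference. With these offsets and the replicate block the values were Eif4g3 -0.23 for control DM2 against GM, Eef1d -0.00195 for ERK3 DM2 against GM, Eef1b2 -0.20, Eif2b2 -0.19 and Eif4a3 -0.21 for ERK3 at DM2, Eef1b2 -0.0614, Eif2b2 -0.0764 and Eif5a -0.0145 for MK5 at DM2 and Eef1d -0.056 for the MK5 response difference. Without the 4 libraries the values were Eef2kmt -0.0725 for ERK3 DM2 against GM. On TPM with the median shift removed the values were Eif2b5 0.28, Eif4a1 -0.26 and Eif4a3 0.00843 for ERK3 DM2 against GM, Eif2b5 0.14 and Eif4a1 -0.21 for MK5 DM2 against GM, Eif2b1 -0.0784 and Eif2s3x -0.42 for ERK3 at DM2, Eif4a1 -0.13 for the ERK3 response difference and Eif4a1 -0.0804 for the MK5 response difference.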
